A study of Rattus norvegicus with 9 samples.

Results

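The genes described here are 57 ligands and receptors of axon guidance, followed over 9 rat microarrays. They were chosen by symbol in the platform's gene annotation: all semaphorins, plexins, neuropilins, ephrins, Eph receptors, netrins, UNC5 receptors, Slits and Robos on the array, together with *Dcc* and *Reln*. The annotation gave 14217 genes in all, and the 57 divide into 28 ligands and 29 receptors. The rule reads symbols alone, but the genes were chosen with earlier results of these data known. Each gene's probe set was the one of highest mean signal.

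Each of 3 kinds of cell preparation was measured on 3 arrays. rESC-RPC2 cells came from DA8-16, a single rat embryonic stem cell line of the DA strain, which was grown as floating aggregates with Matrigel and the Wnt inhibitor IWR-1e, given serum from day 8, plated at day 14 and collected on day 16. rESC-RPC1 cells came from the same line by the same early steps, but were plated at day 10, moved to N2 medium at day 14 and likewise collected on day 16. P-RPC cells were taken from the neural retina of Sprague-Dawley pups on postnatal day 1 and used straight after papain digestion, with no sorting described. Strain, culture and cell source therefore change together against P-RPC, and time of plating and medium change together between the rESC-RPC kinds, so that their parts cannot be told apart. The labels call the 3 arrays of each kind biological replicates.

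Guidance ligands are secreted or membrane-bound proteins that attract or repel the growing tip of an axon, and the receptors on that tip decide which response follows. Semaphorins act through plexins, often with a neuropilin as the ligand-binding partner. Netrin attracts through DCC and repels through UNC5 receptors, Slits act through Robos, and ephrins and Eph receptors signal in both directions between touching cells. In the retina these families steer ganglion cell axons to the optic disc, across or away from the midline and to their place in the brain, and many of them also act in blood vessels and mesenchyme.

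Values are the MAS5 signal, a linear measure of probe set brightness scaled to a common mean on each array. A signal of 122.57, the median over all arrays and non-control probe sets, served as the detection threshold, because the table gave no detection calls. Probe sets bind with different strength, so levels of different genes are not compared. Each gene was read from its probe set of highest mean and tested where at least 3 of 9 arrays reached the threshold, which 41 of the 57 genes and 9956 of all genes did. A gene was called higher or lower at a limma p below 0.05, adjusted by Benjamini-Hochberg over the 9956 genes, with at least a 2-fold change. If none of a group's 3 arrays reached the threshold, only a lower bound of the fold is given, set by the brighter group's mean against the threshold, while the call rests on the fitted change.

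The preparations differed in their markers. *Pax6*, listed here among the retinal progenitor markers, averaged 84.7 ± 24.0 in rESC-RPC2, 118 ± 74.3 in rESC-RPC1 and 13972 ± 423 in P-RPC (SD, n = 3 each). Read from the only probe set that carries its symbol alone, with no other measure of the gene examined here, it was under the threshold on 5 of the 6 rESC-RPC arrays. *Rax*, another such gene, averaged 141 in rESC-RPC2, 249 in rESC-RPC1 and 4623 in P-RPC. Pan-neuronal markers, 8 in all, had a summed signal of 43584 to 49092 in rESC-RPC2, 15926 to 25280.1 in rESC-RPC1 and 19970.3 to 23281 in P-RPC. Over the 8 progenitor markers on the array the sum was 13919 to 15152 in rESC-RPC2, 19089 to 28389 in rESC-RPC1 and 53134 to 54581 in P-RPC. Of the 7 tested, 6 were lower in rESC-RPC2 and 4 in rESC-RPC1 than P-RPC, while *Sox2*, which was not called, had 0.39 in rESC-RPC2 and 0.91 in rESC-RPC1 on the log2 scale. Astrocyte and radial glia markers summed to 35795 to 36895 in rESC-RPC2, 38368 to 47848 in rESC-RPC1 and 14923 to 18732 in P-RPC, with 3 of 7 tested higher in rESC-RPC2 and 6 of 7 in rESC-RPC1 than P-RPC. Pigment epithelium markers summed to 245 to 337 in rESC-RPC2, 1376 to 5601 in rESC-RPC1 and 11632 to 13622 in P-RPC, with 6 of 6 tested lower in rESC-RPC2, and 5 lower and 1 higher in rESC-RPC1, again against P-RPC. Markers of mesenchyme, fibroblasts and smooth muscle, 10 in all, summed to 11882 to 21467 in rESC-RPC2, 18309.8 to 46951 in rESC-RPC1 and 899.8 to 1024 in P-RPC. Endothelial markers summed to 317 to 384 in rESC-RPC2, 642 to 1258 in rESC-RPC1 and 6748 to 7142 in P-RPC, and of the 7 on the array *Kdr* was the 1 that reached the threshold on all 3 arrays of a group. Lens markers summed to 105138 on P-RPC replicate 1, against 1679 and 5176 on the other P-RPC arrays, and photoreceptor markers to 159 to 180.3 in rESC-RPC2, 162 to 329.7 in rESC-RPC1 and 13767 to 15639 in P-RPC. Ganglion cell markers summed to 3230.5 to 3445 in rESC-RPC2, 1830 to 2359 in rESC-RPC1 and 11732 to 14951 in P-RPC. All 7 were tested, with 4 lower and 1 higher in rESC-RPC2, and 4 lower in rESC-RPC1, than P-RPC. *Sncg* alone averaged 125 in rESC-RPC2, 161 in rESC-RPC1 and 8484 in P-RPC. In the same order, amacrine and horizontal cell markers summed to 10309.5 to 11773, 3791 to 5591 and 8430 to 9682. Most of the list went against this sum. Among the 7 tested, 5 were lower and 2 higher in rESC-RPC2 than P-RPC, and 5 lower and 1 higher in rESC-RPC1. *Gad1*, which was higher in both, alone averaged 8726, 3069 and 834 in that order. Microglia markers summed to 127 to 224, 70.9 to 168 and 1256 to 1456, and red blood cell markers to 9.2 to 18.8, 23.8 to 50.6 and 13979 to 15135. In such bulk samples, fewer cells of a type and less RNA per cell cannot be told apart, and the part of these markers in the results was not tested.

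Against P-RPC, 12 guidance genes were higher and 8 lower in rESC-RPC2, 48.8% of the 41 tested, where 23.7% of all tested genes were called (10.7% higher and 13% lower). After median centring of the arrays the counts were 12 and 5. In rESC-RPC1, 9 were higher and 7 lower than in P-RPC, 39% of the 41, against 21.5% of all genes (12% higher and 9.56% lower). Between the rESC-RPC kinds, 5 were higher and 4 lower in rESC-RPC2 than in rESC-RPC1, 22% of the 41, against 14.3% of all genes (5.02% higher and 9.25% lower). The median log2 fold change of the 41 genes was 0.31 for rESC-RPC2 against P-RPC, 0.36 for rESC-RPC1 against P-RPC and 0.11 between the rESC-RPC kinds, while the medians of all genes were -0.02, -0.01 and -0.03. Both comparisons against P-RPC use the same 3 P-RPC arrays. The arrays of no called guidance gene overlapped between the groups compared, which the limits of a call make likely and which is no separate support. Without overlap against P-RPC, 22 of the 41 genes lay above and 11 below in rESC-RPC2 (3509 and 3750 of all 9956). In rESC-RPC1 these were 17 and 10 (3253 and 3354 of all). For rESC-RPC2 against rESC-RPC1 they were 11 and 13 (2412 and 2951 of all). In all, 26 of the 41 genes (63.4%) were called at least once, as were 34.5% of all tested genes. These shares are for genes chosen with earlier results of these data known.

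**Figure D1:**
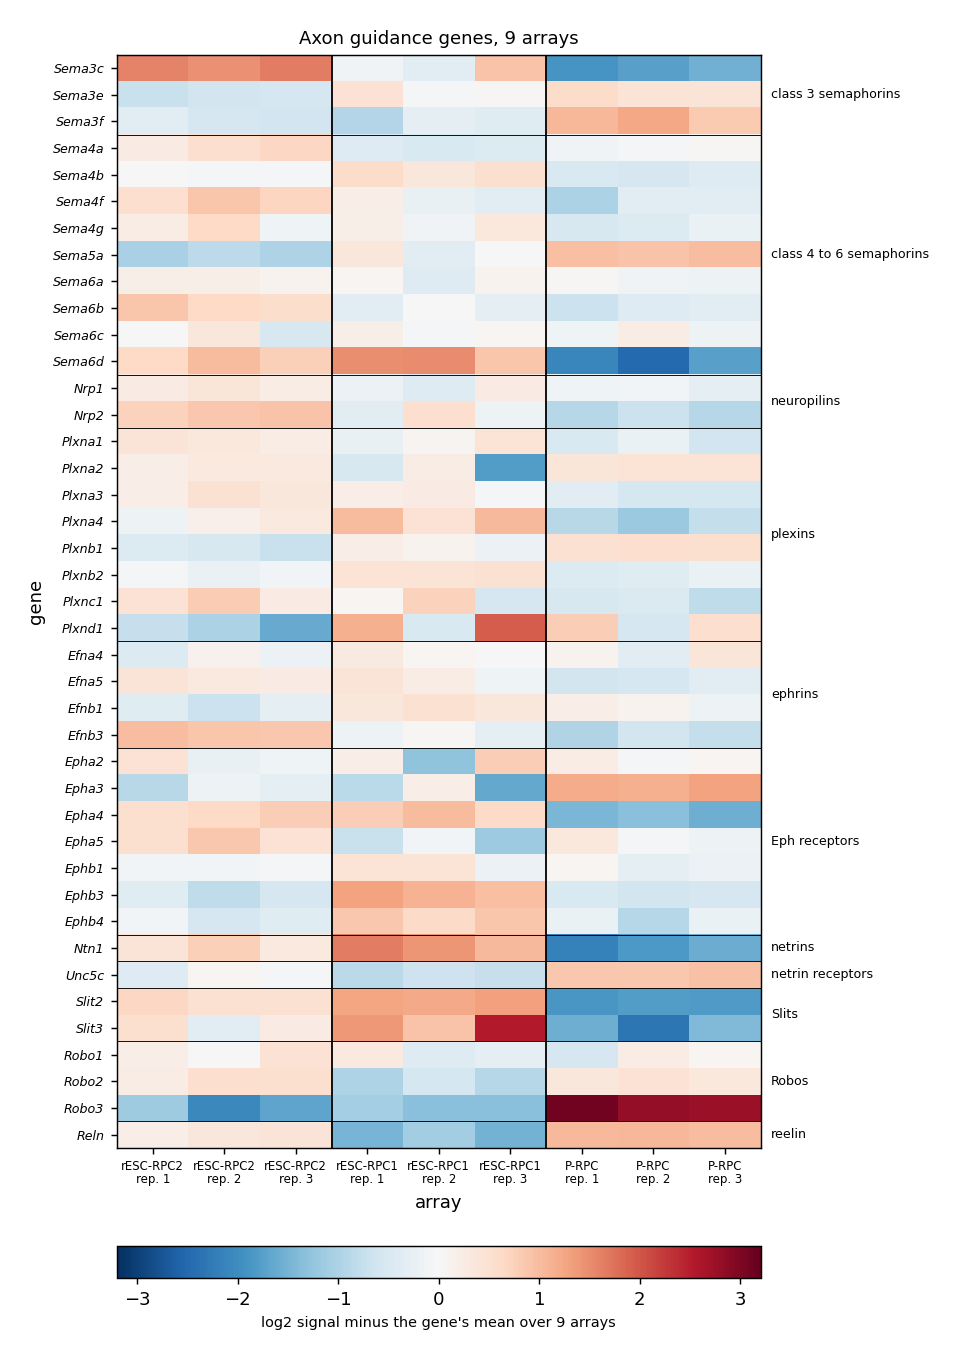
Log2 signal of the 41 tested guidance genes on the 9 arrays, each minus the gene's own mean over the arrays, with genes in rows by family and arrays in columns (rESC-RPC2, rESC-RPC1, P-RPC; 3 replicates each). *Robo3* stands out as bright on P-RPC arrays and *Sema3c*, *Sema6d*, *Slit2*, *Slit3* and *Ntn1* as dim there.

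The 2 tested Slits, secreted repellents, were higher in both rESC-RPC kinds than in P-RPC, and none of the 3 Robos was. This pattern was found in 6.13% of all tested genes. *Slit2* read 2620.4, 2297 and 2329.5 in rESC-RPC2, 3963, 3796 and 4107 in rESC-RPC1 and 456, 479.8 and 472 in P-RPC. The 3 groups did not overlap, and rESC-RPC1 was highest. The log2 fold change was 2.36 ± 0.08 (SE) for rESC-RPC2 (limma adjusted p = 1.22e-08) and 3.07 ± 0.08 for rESC-RPC1 (adjusted p = 3.01e-09), both against P-RPC. *Slit3* read 301, 167 and 254 in rESC-RPC2, 551, 399 and 1228 in rESC-RPC1 and 72.1, 42.7 and 80.1 in P-RPC. All P-RPC arrays lay under the threshold, and replicate 3 of rESC-RPC1 was far above the other rESC-RPC1 arrays. *Slit3* was at least 1.91-fold higher in rESC-RPC2 (adjusted p = 0.00193) and at least 5.28-fold higher in rESC-RPC1 (adjusted p = 4.68e-05) than in P-RPC. The rESC-RPC2 level was below that of rESC-RPC1, with a log2 fold change of -1.47 ± 0.40 (adjusted p = 0.0119). The methods' t-test did not make this call, before or after adjustment. *Slit1* stayed under the threshold on all 9 arrays.

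*Robo3*, the divergent Robo that lets commissural axons cross the midline, showed the largest fitted fall among the 41 genes. It read 41.9, 22.1 and 28.6 in rESC-RPC2, 43.7, 36.9 and 36.5 in rESC-RPC1 and 782, 649.8 and 630.4 in P-RPC. All 6 rESC-RPC arrays lay under the threshold and all P-RPC arrays above it. Against P-RPC the fall was at least 5.58-fold in rESC-RPC2 (limma adjusted p = 3.59e-07) and at least 5.58-fold in rESC-RPC1 (adjusted p = 7.15e-07). The gene passed the filter through P-RPC alone, so that leaving out any 1 P-RPC array removes it from the test. The 250 bases before its start, on the minus strand at chr8:45340223-45340472 of GRCr8 (RefSeq), are shown because this gene had the largest fall. Capitals mark matches to TAATTA, a homeodomain core, and to TAATCC, the site of the eye and photoreceptor factors OTX2 and CRX, read on either strand.

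Robo3: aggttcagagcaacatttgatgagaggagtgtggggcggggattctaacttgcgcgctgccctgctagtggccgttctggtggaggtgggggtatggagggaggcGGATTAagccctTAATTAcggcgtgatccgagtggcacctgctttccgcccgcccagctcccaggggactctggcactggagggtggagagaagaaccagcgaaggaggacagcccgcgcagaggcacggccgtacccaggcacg

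A window of this length was found in the table for 43 of the 57 genes (44 windows, since *Robo1* has a pair). TAATTA, which is its own reverse complement, occurred in 2 of the 44 windows (*Robo3* and *Sema6b*) and in 4.86% of all 33469 windows of the table. TAATCC or GGATTA occurred in 1 of the 44, that of *Robo3*, and in 6.34% of all. The other motifs searched on both strands were CAGCTG, an E-box, and CATTCC or GGAATG, a TEAD site, which occurred in 3 of the 44 and in 12.1% of all. These matches describe letters and are not shown to be bound.

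*Robo2*, a Slit receptor on retinal axons, instead set rESC-RPC1 apart. It read 2236, 2752 and 2680.4 in rESC-RPC2, 962, 1284 and 1004 in rESC-RPC1 and 2447, 2605 and 2378 in P-RPC. Arrays of rESC-RPC2 and P-RPC overlapped, and every rESC-RPC1 array was below both. It was lower in rESC-RPC1 than P-RPC (log2 fold change -1.20 ± 0.12, limma adjusted p = 1.45e-05) and higher in rESC-RPC2 than in rESC-RPC1 (1.24 ± 0.12, adjusted p = 2.49e-05). Read from the probe set of second highest mean, neither passed the 2-fold limit, at -0.78 and 0.43. *Robo1* was not called in any comparison.

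**Figure D2:**
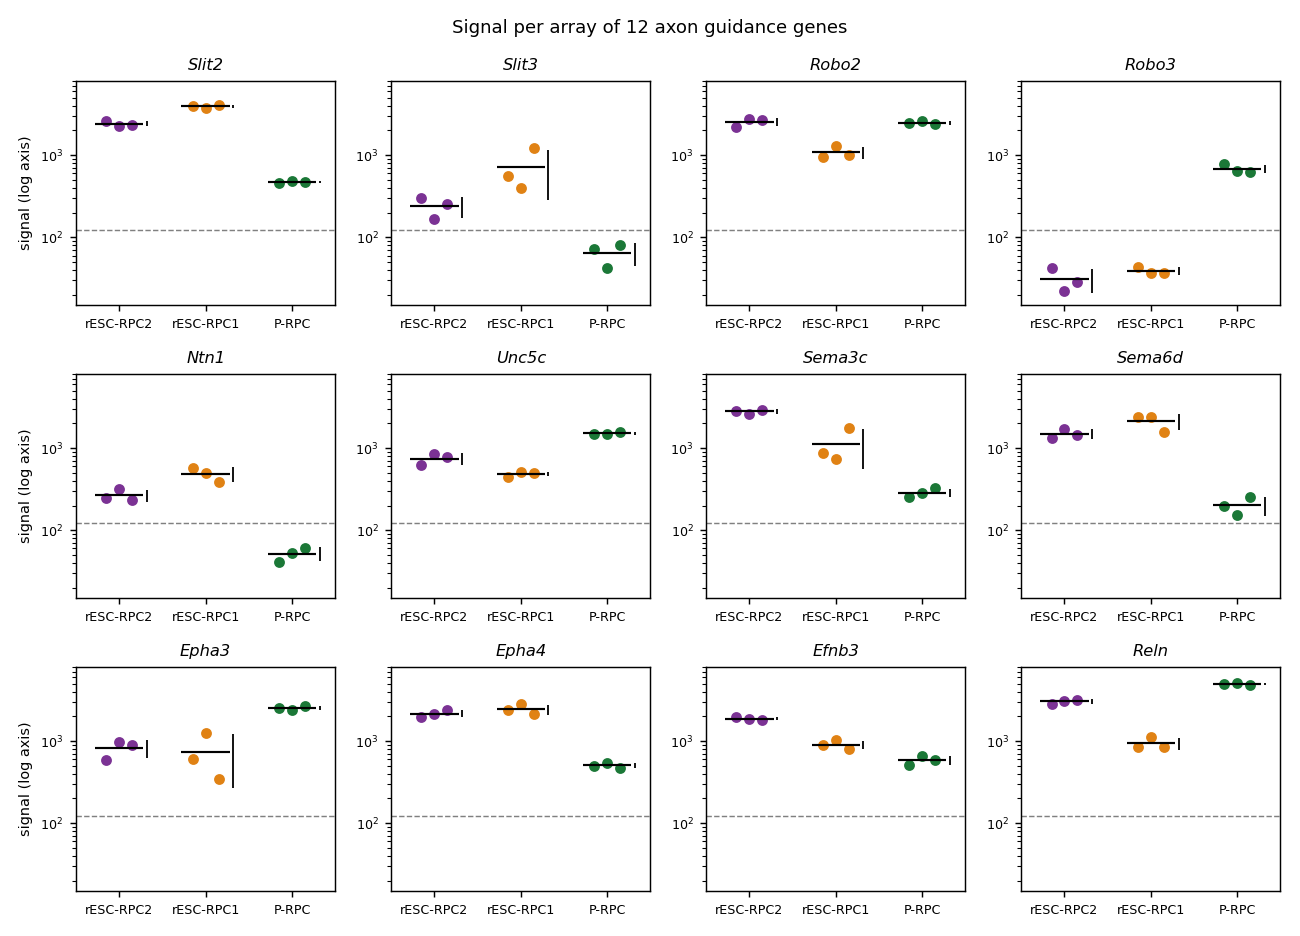
Signal per array (log axis) of 12 guidance genes in rESC-RPC2, rESC-RPC1 and P-RPC. Points are arrays, horizontal lines the means, vertical bars the SD (n = 3 each) and the dashed line the detection threshold of 122.57; *Robo3* lies under it on all 6 rESC-RPC arrays, *Slit3* and *Ntn1* on all 3 P-RPC arrays.

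*Ntn1* encodes netrin-1, the secreted cue that leads retinal axons into the optic disc. It read 249.9, 318 and 233 in rESC-RPC2, 580.5, 498 and 385 in rESC-RPC1 and 41.6, 52.2 and 61.6 in P-RPC. Every P-RPC array was under the threshold and every rESC-RPC array above it. It was at least 2.16-fold higher in rESC-RPC2 (limma adjusted p = 6.1e-06) and at least 3.92-fold higher in rESC-RPC1 (adjusted p = 7.71e-07) than in P-RPC. *Unc5c*, a receptor for repulsion by netrin, went the other way, with 617, 843 and 777 in rESC-RPC2, 449, 514 and 492 in rESC-RPC1 and 1483, 1486 and 1560.0 in P-RPC. Its arrays were highest in P-RPC, with no overlap. The log2 fold change was -1.03 ± 0.12 in rESC-RPC2 (adjusted p = 3.64e-05) and -1.64 ± 0.12 in rESC-RPC1 (adjusted p = 1.6e-06). The rESC-RPC2 value lies close to the 2-fold limit and was -0.90 without rESC-RPC2 replicate 1 and -0.95 after median centring of the arrays. The probe set of second highest mean gave -0.70 in rESC-RPC2 and -0.84 in rESC-RPC1, both under the 2-fold limit. *Dcc*, the receptor for attraction by netrin, lay between 5.92 and 60.4 over the 9 arrays, under the threshold on all of them. *Unc5a* and *Ntn5* were also under it on all 9, and *Unc5b* reached it on 2.

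Of the class 3 semaphorins, which are secreted, 3 of 7 were tested. *Sema3c*, a cue for neural crest, vessels and axons, read 2844, 2603 and 2948 in rESC-RPC2, 874, 735 and 1769 in rESC-RPC1 and 255, 282 and 325 in P-RPC. The groups did not overlap, and rESC-RPC1 replicate 3 was over 2-fold above the other rESC-RPC1 arrays. The log2 fold change against P-RPC was 3.29 ± 0.26 in rESC-RPC2 (limma adjusted p = 2.52e-06) and 1.87 ± 0.26 in rESC-RPC1 (adjusted p = 0.000148). Between the rESC-RPC kinds it was 1.42 ± 0.26 (adjusted p = 0.00133), which the methods' t-test lost after adjustment (adjusted p = 0.0637). *Sema3c* and *Efnb3* were the 2 guidance genes called higher in rESC-RPC2 than in both other groups, a pattern that 2.87% of all tested genes had. The 250 bases before the start of *Sema3c*, on the minus strand at chr4:18699628-18699877 of GRCr8 (RefSeq), are shown because its fitted rise in rESC-RPC2 was the largest among the 41 genes. They hold 0 CpG, against a median of 14 in the 44 guidance gene windows and 5 in all windows, and no match to the motifs searched, so no letter is in capitals.

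Sema3c: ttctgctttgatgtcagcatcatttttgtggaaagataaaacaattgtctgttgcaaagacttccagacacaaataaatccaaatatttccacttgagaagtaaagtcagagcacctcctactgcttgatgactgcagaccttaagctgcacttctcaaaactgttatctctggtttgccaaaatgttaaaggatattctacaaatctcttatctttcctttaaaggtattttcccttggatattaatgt

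*Sema3f*, which repels through neuropilin-2, read 121, 107 and 102 in rESC-RPC2, 81.3, 124 and 118 in rESC-RPC1 and 320.5, 364 and 277 in P-RPC. Only 1 rESC-RPC array reached the threshold. In rESC-RPC2 its fall against P-RPC was at least 2.60-fold (limma adjusted p = 9.19e-05), and its log2 fold change in rESC-RPC1 was -1.59 ± 0.21 (adjusted p = 8.37e-05). *Sema3e*, the ligand of plexin-D1, read 468, 508 and 523 in rESC-RPC2, 1048, 732 and 791 in rESC-RPC1 and 1148, 1029 and 1011 in P-RPC. It was lower in rESC-RPC2 than P-RPC (-1.09 ± 0.13, adjusted p = 5.18e-05), and in rESC-RPC1 it was not called (-0.33). *Sema3a*, *Sema3b* and *Sema3d* stayed under the threshold on all arrays, and *Sema3g* reached it on 2.

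Among the 9 tested semaphorins of classes 4 to 6, which are bound to the membrane, *Sema6d* changed most. *Sema6d* acts with plexin-A1 and in mice with retinal axons at the optic chiasm. It read 1313, 1705 and 1441 in rESC-RPC2, 2366, 2427 and 1581 in rESC-RPC1 and 199, 152 and 256 in P-RPC. Every rESC-RPC array exceeded every P-RPC array over 5-fold. The log2 fold change was 2.90 ± 0.21 in rESC-RPC2 (limma adjusted p = 1.27e-06) and 3.40 ± 0.21 in rESC-RPC1 (adjusted p = 5.03e-07). The 250 bases before its start, on the plus strand at chr3:132337106-132337355 of GRCr8 (RefSeq), are shown because this gene rose in both rESC-RPC kinds. Capitals mark CAGCTG, an E-box that is its own reverse complement, found in 10 of the 44 guidance gene windows and in 12% of all.

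Sema6d: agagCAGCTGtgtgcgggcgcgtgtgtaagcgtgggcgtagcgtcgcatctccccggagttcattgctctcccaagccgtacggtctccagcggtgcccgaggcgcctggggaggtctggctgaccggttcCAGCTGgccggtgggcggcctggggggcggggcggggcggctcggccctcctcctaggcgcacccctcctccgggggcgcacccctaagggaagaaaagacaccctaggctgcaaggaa

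*Sema5a*, an inhibitor of retinal axon growth, read 412, 472 and 420.4 in rESC-RPC2, 1078, 656 and 846 in rESC-RPC1 and 1641, 1571 and 1657 in P-RPC. It was lower in rESC-RPC2 than P-RPC by the main probe set (-1.90 ± 0.16, limma adjusted p = 2.96e-06), while the probe set of second highest mean gave -0.79, under the 2-fold limit. In rESC-RPC1 it was not called (-0.95 ± 0.16). *Sema6b*, a ligand of plexin-A4, read 347, 294 and 281 in rESC-RPC2, 147, 191 and 151 in rESC-RPC1 and 117, 143 and 149 in P-RPC. It was higher in rESC-RPC2 than P-RPC (1.17 ± 0.17, adjusted p = 0.000184). *Sema4f*, another membrane semaphorin, read 182, 231 and 201 in rESC-RPC2, 145, 106 and 97.1 in rESC-RPC1 and 62.5, 99.4 and 97.2 in P-RPC, where no array reached the threshold. It was at least 1.66-fold higher in rESC-RPC2 than P-RPC (adjusted p = 0.00113). *Sema4a*, *Sema4b*, *Sema4g*, *Sema6a* and *Sema6c* were never called, and *Sema4d* was under the threshold on all arrays.

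The neuropilins and all 8 plexins, the receptors of semaphorins, were tested. *Nrp2*, the partner for *Sema3f* and *Sema3c*, read 468, 509 and 525 in rESC-RPC2, 219, 407 and 252 in rESC-RPC1 and 149, 174 and 148 in P-RPC. It was higher in rESC-RPC2 than P-RPC (1.68 ± 0.21, limma adjusted p = 5.51e-05) and was not called in rESC-RPC1 (0.85 ± 0.21). *Nrp1* was not called in any comparison. *Plxna4*, a receptor for class 6 semaphorins and partner for class 3, read 156, 196 and 218 in rESC-RPC2, 356, 239 and 359.5 in rESC-RPC1 and 95.4, 77.1 and 103 in P-RPC, where no array reached the threshold. It was at least 1.54-fold higher in rESC-RPC2 (adjusted p = 0.00162) and at least 2.55-fold higher in rESC-RPC1 (adjusted p = 5.1e-05). The fitted rESC-RPC2 change of 1.05 on the log2 scale was 0.94 without rESC-RPC2 replicate 3 and 0.93 without P-RPC replicate 2, and the probe set of second highest mean gave 0.79 in rESC-RPC2 and 0.87 in rESC-RPC1.

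*Plxnb1*, the receptor of *Sema4d*, read 775, 739.8 and 636 in rESC-RPC2, 1211, 1125 and 916 in rESC-RPC1 and 1479, 1534 and 1487 in P-RPC. It was lower in rESC-RPC2 than P-RPC (-1.07 ± 0.12, limma adjusted p = 2.43e-05), a call lost without rESC-RPC2 replicate 3 (-0.99) and with the second probe set (-0.38). *Plxnc1*, a receptor for semaphorin 7A, read 903, 1145 and 783 in rESC-RPC2, 688, 1093 and 449.6 in rESC-RPC1 and 462, 476 and 376 in P-RPC. It was higher in rESC-RPC2 (1.10 ± 0.27, adjusted p = 0.00498), and the value was 0.95 without rESC-RPC2 replicate 2, 0.99 without P-RPC replicate 3 and 0.18 with the second probe set. *Plxna2*, a partner of class 3 and class 6 semaphorins, read 618, 659.6 and 664 in rESC-RPC2, 374, 626 and 154 in rESC-RPC1 and 698, 717 and 724 in P-RPC. Its fall in rESC-RPC1 (-1.11 ± 0.38, adjusted p = 0.0266) was -0.56 without rESC-RPC1 replicate 3, and the adjusted p ended between 0.0604 and 0.0661 without any 1 P-RPC array. With the second probe set the value was -0.36, with the 2 groups alone the adjusted p was 0.0583, and the call was kept in 12 of 20 alternatives.

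*Plxnd1*, the receptor of *Sema3e*, varied within groups. It read 82.1, 67.8 and 45.0 in rESC-RPC2, 303, 98.8 and 525 in rESC-RPC1 and 235, 95.0 and 198 in P-RPC. All rESC-RPC2 arrays were under the threshold, as was replicate 2 of each other group. Its rESC-RPC2 signal was lower than that of rESC-RPC1 by at least 2.04-fold (limma adjusted p = 0.013) and lower than that of P-RPC by at least 1.34-fold (adjusted p = 0.0491). The call against P-RPC was lost without any 1 rESC-RPC2 array (adjusted p up to 0.151), without rESC-RPC1 replicate 1 (0.0654), without P-RPC replicate 1 (0.157) and without P-RPC replicate 3 (0.131). The call against rESC-RPC1 was lost without rESC-RPC2 replicate 3 (0.0541) and without rESC-RPC1 replicate 1 (0.0501). Over all alternatives, the call against P-RPC was kept in 8 of 19 and that against rESC-RPC1 in 15 of 19. *Plxna1*, *Plxna3* and *Plxnb2* were never called.

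Of the ephrins, 1 of 4 tested was called, in rESC-RPC2 against P-RPC and against rESC-RPC1. This is 25% in each, near the 23.7% of all tested genes called in the first comparison, with 14.3% in the second. *Efnb3*, a transmembrane ligand that keeps axons from crossing the midline, read 1966, 1839 and 1820.1 in rESC-RPC2, 895, 1016 and 809.6 in rESC-RPC1 and 509, 661 and 592 in P-RPC. The 3 groups did not overlap. It was higher in rESC-RPC2 than P-RPC (1.68 ± 0.12, limma adjusted p = 1.04e-06) and than in rESC-RPC1 (1.05 ± 0.12, adjusted p = 5.91e-05), the second of which was 0.97 without rESC-RPC1 replicate 3, just under 2-fold. *Efna4*, *Efna5* and *Efnb1* were not called, and *Efna1* was under the threshold on all arrays.

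Of the 7 tested Eph receptors, 2 were called in rESC-RPC2 against P-RPC (28.6%, where 23.7% of all tested genes were called). The count was 4 in rESC-RPC1 against P-RPC (57.1%, against 21.5% of all). Between the rESC-RPC kinds it was 3 (42.9%, against 14.3% of all). *Epha4*, which binds ephrins of both classes, read 1987, 2138 and 2372 in rESC-RPC2, 2395, 2796 and 2106 in rESC-RPC1 and 504, 547 and 465 in P-RPC. Every rESC-RPC array was over 3-fold above every P-RPC array. The log2 fold change was 2.10 ± 0.12 in rESC-RPC2 (limma adjusted p = 2.49e-07) and 2.26 ± 0.12 in rESC-RPC1 (adjusted p = 1.61e-07). *Epha3*, a receptor of class A ephrins, ran the other way with 595, 969.8 and 899 in rESC-RPC2, 602, 1267 and 349 in rESC-RPC1 and 2508, 2387 and 2670.1 in P-RPC. All rESC-RPC arrays were below all P-RPC arrays. Its log2 fold change was -1.65 ± 0.37 in rESC-RPC2 (adjusted p = 0.00283) and -1.97 ± 0.37 in rESC-RPC1 (adjusted p = 0.00102). *Epha5*, another class A receptor, read 459.6, 582 and 439 in rESC-RPC2 and 194, 302 and 144 in rESC-RPC1, without overlap (1.27 ± 0.25, limma adjusted p = 0.00204). The methods' t-test gave it an adjusted p of 0.0582.

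*Ephb3* and *Ephb4*, receptors of class B ephrins, were higher in rESC-RPC1 than in both other groups, and with *Slit3* were the 3 guidance genes of that pattern, which 4.5% of all tested genes had. *Ephb3* read 535, 399 and 486 in rESC-RPC2, 1704, 1517 and 1363 in rESC-RPC1 and 505, 469 and 485 in P-RPC. Each rESC-RPC1 array was over 2-fold above all others. Its rESC-RPC2 level was lower than in rESC-RPC1 (-1.70 ± 0.13, limma adjusted p = 5.41e-06), and its rESC-RPC1 level was above that of P-RPC (1.65 ± 0.13, adjusted p = 2.23e-06). *Ephb4*, the venous receptor of ephrin-B2, read 179, 129.6 and 145 in rESC-RPC2, 342, 287 and 352 in rESC-RPC1 and 162, 100.8 and 162 in P-RPC. The rESC-RPC1 arrays again stood above the rest, by 1.24 ± 0.22 on the log2 scale against P-RPC (adjusted p = 0.000661), and rESC-RPC2 was -1.12 ± 0.22 against rESC-RPC1 (adjusted p = 0.00175). *Epha2* and *Ephb1* were not called. *Epha6*, *Epha7*, *Epha8* and *Epha10* were under the threshold on all arrays, and *Ephb6* reached it on 1.

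*Reln* encodes reelin, a large secreted protein that guides the layering of neurons through the receptors VLDLR and APOER2 and the adaptor DAB1. It read 2796, 3117 and 3189.6 in rESC-RPC2, 856, 1114 and 848 in rESC-RPC1 and 4963, 5036 and 4791 in P-RPC. The groups did not overlap, with P-RPC highest and rESC-RPC1 lowest. *Reln* was lower in rESC-RPC1 than P-RPC (-2.40 ± 0.11, limma adjusted p = 6.71e-08) and higher in rESC-RPC2 than in rESC-RPC1 (1.70 ± 0.11, adjusted p = 2.51e-06), and the difference between rESC-RPC2 and P-RPC was under 2-fold (-0.70 ± 0.11). With *Robo2* it was 1 of 2 guidance genes called lower in rESC-RPC1 than in both other groups, as were 1.07% of all tested genes. Of the 5 reelin pathway genes listed, *Dab1* and *Vldlr* were called at least once, as were 34.5% of all tested genes. They are named here after their values were seen. *Dab1* read 1611, 1601 and 1663 in rESC-RPC2, 392, 433 and 793 in rESC-RPC1 and 137, 228 and 187 in P-RPC. Its log2 fold change against P-RPC was 3.17 ± 0.25 in rESC-RPC2 (adjusted p = 2.55e-06) and 1.51 ± 0.25 in rESC-RPC1 (adjusted p = 0.000492). *Vldlr* was higher in rESC-RPC1 than P-RPC (1.30 ± 0.12, adjusted p = 9.96e-06), and *Lrp8*, which encodes APOER2, was not called. The 250 bases before the start of *Reln*, on the plus strand at chr4:13628318-13628567 of GRCr8 (RefSeq), hold 41 CpG and are shown as the contrast to *Sema3c*. None of the motifs searched matched, so no letter is in capitals.

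Reln: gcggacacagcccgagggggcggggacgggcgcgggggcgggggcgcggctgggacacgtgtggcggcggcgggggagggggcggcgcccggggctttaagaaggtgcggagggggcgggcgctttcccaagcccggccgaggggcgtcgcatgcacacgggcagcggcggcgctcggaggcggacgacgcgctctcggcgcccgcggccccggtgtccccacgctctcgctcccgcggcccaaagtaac

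**Figure D3:**
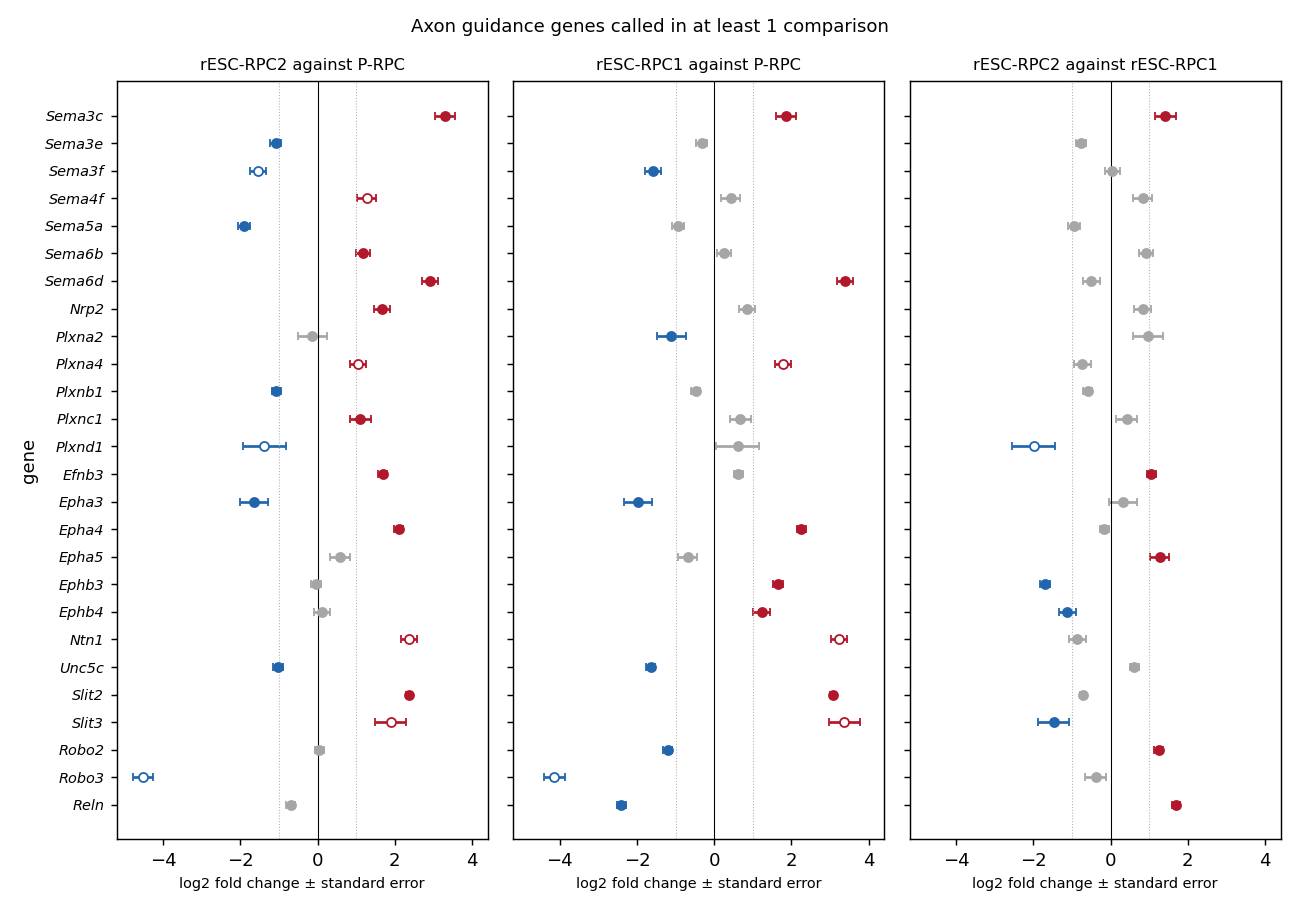
Log2 fold change ± SE from limma of the 26 guidance genes called at least once, in 3 comparisons. Red points were called higher, blue lower, grey not called; open points mark folds that are lower bounds because a group lay under the threshold, and dotted lines mark 2-fold.

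The 15 tested genes that were never called had log2 fold changes between -0.86 and 0.96 over the 3 comparisons. Of the 16 genes that were not tested, 13 were under the threshold on all 9 arrays and 3 reached it on 1 or 2. Called against P-RPC in the same direction in both rESC-RPC kinds were *Epha4*, *Ntn1*, *Plxna4*, *Sema3c*, *Sema6d*, *Slit2* and *Slit3* as higher, 7 genes where 6.13% of all tested genes had this pattern, and *Epha3*, *Robo3*, *Sema3f* and *Unc5c* as lower, 4 genes against 7.08% of all.

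Replicates of rESC-RPC1 were uneven for some of these genes. On replicate 2, 5 of the 41 genes lay at least 2-fold away from the mean of the other rESC-RPC1 arrays on the log2 scale (*Epha2*, *Epha3*, *Plxna2*, *Plxnd1* and *Slit3*), and on replicate 3 the same 5 and *Sema3c* did. Over all tested genes the share was 4.42% on replicate 2 and 3.92% on replicate 3, against 0.623% to 1.51% on the other 7 arrays. *Slit3*, *Sema3c*, *Plxnd1* and *Epha2* were brightest on replicate 3, and *Epha3* and *Plxna2* on replicate 2. The mesenchymal marker sum was 46951 on replicate 3 and 18309.8 on replicate 2, and the retinal progenitor sum 19089 on replicate 3 and 28389 on replicate 2. Their part in these differences was not tested. Without rESC-RPC1 replicate 2, *Nrp2*, *Plxna2* and *Sema6b* were called as well, making 8 genes higher in rESC-RPC2 than in rESC-RPC1 where all arrays gave 5.

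**Figure D4:**
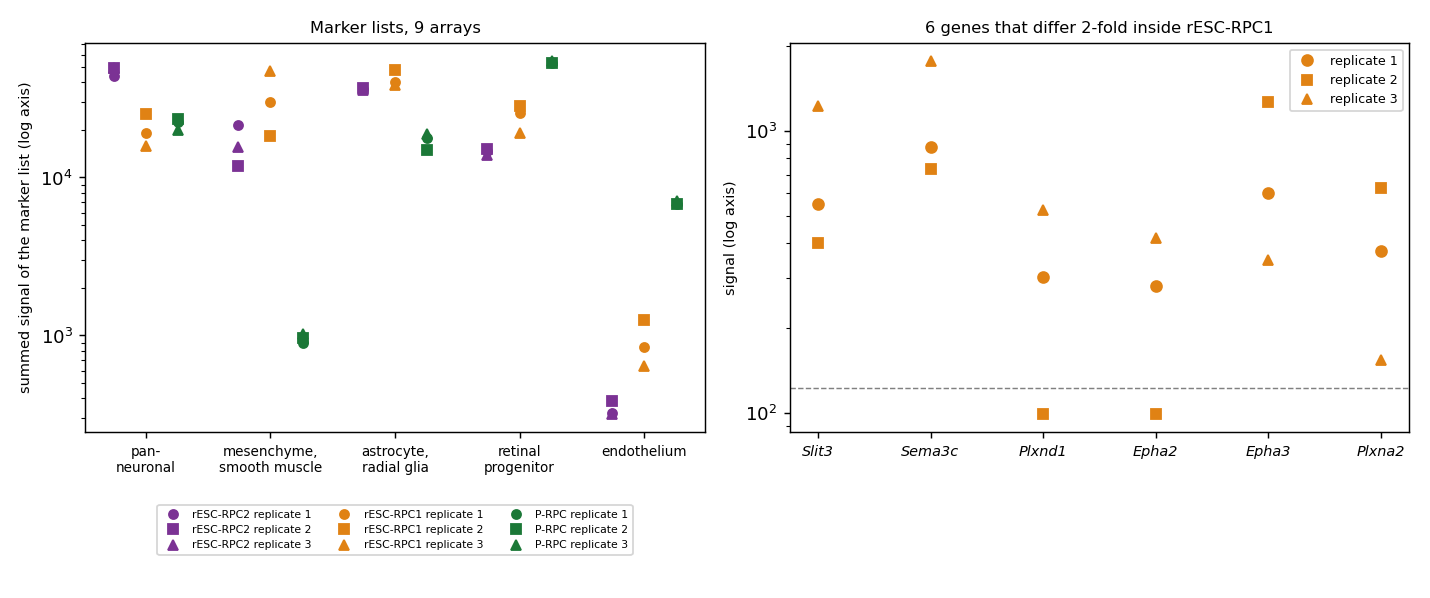
Left, summed signal (log axis) of 5 marker lists on each of the 9 arrays, with colours for rESC-RPC2, rESC-RPC1 and P-RPC and shapes for replicates. Right, signal (log axis) of 6 guidance genes on the 3 rESC-RPC1 arrays with the threshold dashed; replicate 3 is brightest for *Slit3*, *Sema3c*, *Plxnd1* and *Epha2*, and replicate 2 for *Epha3* and *Plxna2*.

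Further probe sets were available for 14 of the 41 genes, 20 in all that passed the same filter, and they were fitted together with all passing probe sets in a comparison added after the data were seen. Where the probe set used was called, the other had the same sign in 11 of 11 cases for rESC-RPC2 against P-RPC, in 12 of 12 for rESC-RPC1 against P-RPC and in 3 of 3 between the rESC-RPC kinds. Both were called in 5, 6 and 2 of these, and in no case were they called in opposite directions. Cases are probe sets and not genes, so a gene with several of them, such as *Epha4*, counts more than once. Those called by both against P-RPC belong to *Epha3*, *Epha4* and *Slit2*, and in rESC-RPC1 also to *Reln*. Between the rESC-RPC kinds they belong to *Reln* and *Robo2*.

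**Figure D5:**
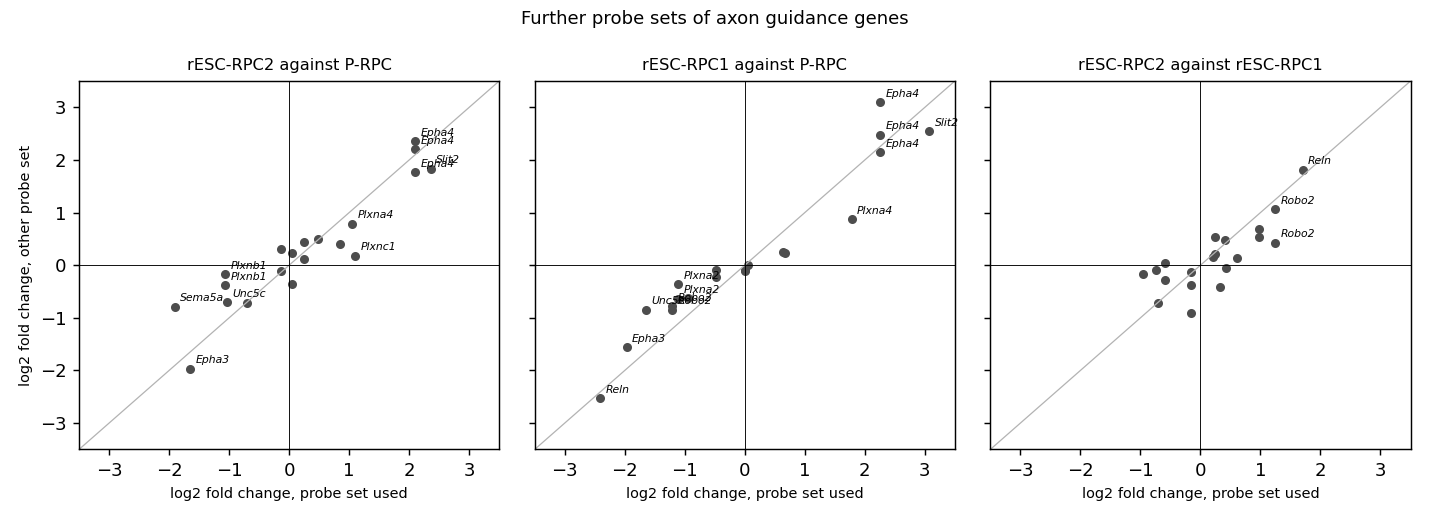
Log2 fold change by the further probe set (vertical axis) against that by the probe set used (horizontal axis), for 20 probe sets of 14 guidance genes in 3 comparisons. The diagonal marks equal values, and genes beyond 2-fold by either probe set are named.

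Further genes of the same pathways, 79 tested of 88 listed, were called at rates nearer to the background. In rESC-RPC2 against P-RPC 12 were higher and 6 lower (22.8%), in rESC-RPC1 against P-RPC 12 and 9 (26.6%), and in rESC-RPC2 against rESC-RPC1 9 and 3 (15.2%). *Pak1*, a kinase that acts on actin, was higher in rESC-RPC2 than P-RPC by 1.39 on the log2 scale (limma adjusted p = 3.11e-07) and than in rESC-RPC1 by 1.25 (adjusted p = 2.61e-06). *Chn2*, which inactivates the GTPase RAC1, followed the same pattern with 1.47 (adjusted p = 6.59e-07) and 1.45 (adjusted p = 3.2e-06). *Dpysl5*, a collapsin response mediator, had 1.41 for rESC-RPC2 over P-RPC (adjusted p = 3.63e-07). In that comparison *Vav3*, an exchange factor downstream of Eph receptors, had -2.25 (adjusted p = 9.39e-07) and *Grip1*, a scaffold that binds ephrin-B, had -1.06 (adjusted p = 5.69e-05).

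In rESC-RPC1, where no array reached the threshold for either gene, *Vav3* was at least 4.88-fold lower (limma adjusted p = 2.45e-07) and *Grip1* at least 3.76-fold lower (adjusted p = 6.25e-07), both against P-RPC. *Mical1*, an oxidase that disassembles actin downstream of plexins, was higher than in P-RPC in both rESC-RPC kinds. Its log2 fold change was 2.29 in rESC-RPC1 (adjusted p = 9.17e-07) and 2.09 in rESC-RPC2 (adjusted p = 1.6e-06). *Rgma*, a repulsive ligand of neogenin, was likewise higher, by 2.38 in rESC-RPC1 (adjusted p = 2.63e-06) and 1.51 in rESC-RPC2 (adjusted p = 5.67e-05). Neither gene was called between the rESC-RPC kinds. *Rras*, a small GTPase that plexins inactivate, was higher by 1.70 in rESC-RPC1 than P-RPC (adjusted p = 4.96e-06) and had -1.39 in rESC-RPC2 against rESC-RPC1 (adjusted p = 4.11e-05). *Crmp1*, a mediator of semaphorin 3A signals, was higher in rESC-RPC2 than in rESC-RPC1 by 1.30 (adjusted p = 2.37e-06), and *Dock1*, an exchange factor used by DCC, had -1.07 (adjusted p = 3.09e-05).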

How the data were processed

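RNA of 3 rESC-RPC2, 3 rESC-RPC1 and 3 P-RPC samples was hybridised to 1-colour Affymetrix Rat Genome 230 2.0 arrays. The authors computed the deposited values with MAS5 as linear intensity (signal), scaled on each array to a trimmed mean between 500.161 and 500.177. The table holds 31099 probe sets, 57 of them controls; 20826 had 1 gene symbol in the platform annotation, 436 several and 9780 none, and only the first kind was used. No detection calls were given, so background per spot is not known here, and the number of arrays limits precision.

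Signals under 1 were raised to 1 and log2 taken. Probe sets at or above 122.57 (the 50th percentile of all non-control values) on 3 of 9 arrays were kept, then for each gene the one of highest mean. All 9 arrays entered 1 fit with a mean per group in limma 3.58.1 (R 4.3.3), with a variance trend and Benjamini-Hochberg adjustment over 9956 genes, called at 0.05 and 2-fold. The fit was tested on simulated data. Same-numbered arrays were not treated as pairs. Correlations of their deviations from the group means lay between -0.041 and 0.27. The 1 of 9 over 0.1 was that of replicate 2 between rESC-RPC2 and rESC-RPC1. Promoter windows came from RefSeq (GRCr8), cut to the 250 bases before the start.

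The genes and gene lists were chosen with earlier results of these data known. Per-array values are given for the called genes, the 8 with the largest rise and fall in each comparison included, and for *Dcc* and *Reln*. Of the further pathway genes, up to 3 called per comparison and direction, of the smallest adjusted p, were eligible to be named. Alternatives were quantile normalization, median centring, other filters and floors, the second probe set, no variance trend, 2 groups alone, the methods' t-test, a replicate block and leaving out each array.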

Additional observations from a re-analysis of the deposited data

Results flagged for a closer look

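2 genes that were not called against P-RPC lay on opposite sides of it in the rESC-RPC kinds, with all arrays of each kind beyond all P-RPC arrays. How many of all tested genes had this pattern was not counted. Arrays without overlap were common among the 9956 tested genes. Against P-RPC, 3509 lay above and 3750 below in rESC-RPC2, and 3253 above and 3354 below in rESC-RPC1. Both genes were picked by this separation, so their p-values are no separate support. *Efnb1*, a transmembrane ephrin, changed by -0.50 on the log2 scale in rESC-RPC2 (limma adjusted p = 0.0142) and by 0.36 in rESC-RPC1 (adjusted p = 0.0634) against P-RPC, and the difference between the rESC-RPC kinds, tested directly, was -0.86 (adjusted p = 0.00102). *Sema4a*, a membrane semaphorin, had 0.53 in rESC-RPC2 (adjusted p = 0.00351) and -0.39 in rESC-RPC1 (adjusted p = 0.0185), and the difference between the kinds was 0.92 (adjusted p = 0.000181). All of these are under 2-fold.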

How the results depend on the processing

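No alternative turned the direction of a called guidance gene. Over 45 called results, the processing alternatives gave 488 values, of which 462 kept the call and 26 lost it, and leaving out single arrays gave 399, of which 380 kept it and 19 lost it. The count of guidance genes lower in rESC-RPC2 than P-RPC, 8, was 5 after median centring (without *Plxnb1*, *Plxnd1* and *Unc5c*), 5 with 6 of 9 arrays required at the threshold and 5 with the second probe set. Lower in rESC-RPC1 than P-RPC were 4 in place of 7 with the second probe set, and of all genes 622 in place of 952 with 6 of 9 arrays required, a filter that removes genes bright in 1 group alone. Between rESC-RPC2 and rESC-RPC1 the methods' t-test with Benjamini-Hochberg gave 3 higher in place of 5 (without *Epha5* and *Sema3c*) and 2 lower in place of 4 (without *Plxnd1* and *Slit3*), and unadjusted also 2 lower; the cause was not tested. Leaving out single arrays moved the count higher in rESC-RPC2 than in rESC-RPC1 between 4 and 8, the highest without rESC-RPC1 replicate 2. *Robo3* could not be tested without any 1 P-RPC array, since 3 arrays are needed. With the replicate number as a block the counts were 12 higher and 8 lower for rESC-RPC2 and 9 and 7 for rESC-RPC1 against P-RPC, and 5 and 4 between the rESC-RPC kinds, as without it. Where no array of 1 group reached the threshold, as for *Robo3* and *Ntn1* against P-RPC, the signal limits the fold to a bound.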
